A study of Schizosaccharomyces pombe with 16 samples.

Results

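The histone genes of the fission yeast Schizosaccharomyces pombe were followed through 8 combinations of strain and medium in a bulk RNA-seq series of 16 libraries. They were taken by gene identifier and number 10 of the 7019 genes in the deposited count table. Histone H2A is encoded by hta1 (SPCC622.08c) and hta2 (SPAC19G12.06c), H2B by htb1 (SPCC622.09) and the variant H2A.Z by pht1 (SPBC11B10.10c). Histone H3 is encoded by hht1 (SPAC1834.04), hht2 (SPBC8D2.04) and hht3 (SPBC1105.11c), and H4 by hhf1 (SPAC1834.03c), hhf2 (SPBC8D2.03c) and hhf3 (SPBC1105.12). The study compared the transcriptome of a bioethanol production isolate of S. pombe with its ancestor and with a laboratory strain across carbon sources. Wilmar-P (h90) is that isolate, Wilmar-A (h90) is the ancestral isolate it was passaged from through molasses fermentations, and 972h- (h-) is the laboratory strain.

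Wilmar-P and Wilmar-A were grown for 4 h at 32 degrees in YES, a rich yeast extract medium, with 3% glucose, washed, and held for another 4 h at 32 degrees in one of 3 media. The glucose-starved medium held 3% glycerol and no glucose. The glucose-deficient medium held 3% glycerol and 0.1% glucose, and the glucose medium held 3% glucose. Wilmar-P and the laboratory strain were also grown for 4 h in molasses medium, with no earlier culture and wash stated for these. Each of the 8 groups had 2 libraries of ribosomal RNA-depleted total RNA. The labels do not say whether the 2 came from separate cultures, so p-values measure only the spread between these libraries.

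Histones package DNA, and a dividing cell needs a new set each time it copies its genome, so histone mRNA is generally made in S phase and kept low outside it. In S. pombe the genes of H3 and H4 lie in divergent pairs that share one upstream region, and so do hta1 and htb1. S-phase transcription of core histone genes is known to involve Ams2, a GATA-type factor made around S phase. It also involves Teb1, a Myb-type protein that binds the AACCCT box. This need not hold alike for every core histone gene, and dependence on either factor was not tested here. The HIRA complex, which includes Hip1 and Slm9, represses histone genes outside S phase.

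In the coordinates of the count table (ASM294v2), the pair hhf1 and hht1 spans chromosome I from 4698773 to 4700560, hhf2 and hht2 chromosome II from 1364189 to 1365818, hht3 and hhf3 chromosome II from 3528800 to 3530388, and hta1 and htb1 chromosome III from 1411144 to 1413677. hta2 lies alone on chromosome I (4052446 to 4053397, minus strand) and pht1 on chromosome II (1502203 to 1503468, minus strand). In RefSeq each of the 10 has its coding sequence in 1 uninterrupted part.

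The 3 H3 genes encode one and the same protein of 136 residues, and the 3 H4 genes encode one and the same protein of 103 residues, as translated from the RefSeq genome (assembly ASM294v3). In this reference the RNAs can still be told apart by silent differences. The paper reports many sequence variants in the Wilmar isolates relative to the laboratory reference. The Wilmar sequences of these genes and of their upstream regions were not examined here. The H3 coding sequences were 88.3% to 92.7% identical and the H4 coding sequences 91.3% to 93.3%. The start of each H3 coding sequence is printed here because the H3 genes separated from each other most in the counts. Capitals mark the positions at which the 3 genes are not all alike, 14 of the first 90 bases and 61 of the 411 bases in all, of which 58 are at codon position 3.
hht1 (chrI:4699829-4699918, plus strand): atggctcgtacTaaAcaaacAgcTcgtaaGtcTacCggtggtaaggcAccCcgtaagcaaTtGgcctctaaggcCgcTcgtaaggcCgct
hht2 (chrII:1365158-1365247, plus strand): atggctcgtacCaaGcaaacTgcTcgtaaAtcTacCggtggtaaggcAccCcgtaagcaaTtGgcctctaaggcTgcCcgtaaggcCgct
hht3 (chrII:3529440-3529529, minus strand): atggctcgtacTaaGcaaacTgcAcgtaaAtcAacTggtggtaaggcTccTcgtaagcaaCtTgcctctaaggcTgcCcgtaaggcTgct

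No stretch of 75 bases in any of the 10 genes occurred elsewhere in the reference genome. At 50 bases, 0.8% of the stretches of hhf2 and 1.05% of those of hhf3 did, and none of the other genes'. The H2A proteins of hta1 and hta2 were 97.7% identical, with 3 alignment differences, whereas Pht1 was 52.9% identical to the hta1 product and 53.6% to the hta2 product.

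The upstream regions share one element. The letters AACCCT directly followed by a second AACCCT, read on either strand, stood within the window from 250 bases before to 50 bases after the RefSeq start of 9 of the 10 histone genes, and pht1 had none. The same tandem stood in 20 of 5112 protein-coding promoters (0.391%), and a single AACCCT, which the tandem includes, in 496 (9.7%). The 9 genes share 5 regions, since 8 of them are divergent partners. The shortest motif for a GATA factor, GATA itself, was in 92.76% of promoters, so having it sets no gene apart. Of the 10 histone genes 9 had it in this window, all but hhf2. The regions between the RefSeq starts of the divergent partners are printed whole, and for hta2 the 150 bases before its start, because they hold every copy of the tandem. Capitals mark the tandem as AACCCT or as its complement AGGGTT.
hht1, shared with hhf1 (chrI:4699600-4699731, plus strand): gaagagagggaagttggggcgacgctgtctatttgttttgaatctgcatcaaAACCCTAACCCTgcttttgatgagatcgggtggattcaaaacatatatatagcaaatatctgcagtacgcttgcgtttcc
hht2, shared with hhf2 (chrII:1364985-1365118, plus strand): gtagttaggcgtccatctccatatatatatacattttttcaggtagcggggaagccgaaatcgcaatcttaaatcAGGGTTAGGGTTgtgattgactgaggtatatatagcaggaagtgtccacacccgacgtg
hht3, shared with hhf3 (chrII:3529566-3529766, minus strand): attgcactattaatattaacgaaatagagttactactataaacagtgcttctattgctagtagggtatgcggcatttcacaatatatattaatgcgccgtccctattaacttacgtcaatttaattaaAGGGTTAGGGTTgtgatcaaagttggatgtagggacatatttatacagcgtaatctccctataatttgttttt
htb1, shared with hta1 (chrIII:1412182-1412358, plus strand): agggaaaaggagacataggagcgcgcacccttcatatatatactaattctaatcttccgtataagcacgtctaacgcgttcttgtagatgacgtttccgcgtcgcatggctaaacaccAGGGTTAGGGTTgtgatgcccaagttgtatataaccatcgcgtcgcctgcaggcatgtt
hta2 (chrI:4053319-4053468, minus strand): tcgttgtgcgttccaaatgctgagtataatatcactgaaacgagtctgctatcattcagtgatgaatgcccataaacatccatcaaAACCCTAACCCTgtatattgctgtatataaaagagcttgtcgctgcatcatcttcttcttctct

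Read on the strand that spells AACCCT, the tandem followed ATCAC in 3 of the 5 regions (hht2 with hhf2, hht3 with hhf3, and hta1 with htb1) and ATCAA in the other 2. Copies began at positions -140 to -53 from the RefSeq starts. Thus hht1, hht2 and hht3 carry the same element beside coding sequences for the same protein, and a match is a description of letters, not of binding.

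Library totals were 13246648 to 18164249 counts. Levels are given as CPM, a gene's count relative to the total count of its library, with TMM factors that correct for differences in library composition. The media labels were checked with fbp1, the glucose-repressed fructose-1,6-bisphosphatase gene, which had 4759 to 12089 counts in the glucose-starved and glucose-deficient libraries, 85 to 442 in the glucose libraries and 83 to 211 in molasses. The galactose genes gal1, gal7 and gal10 had at most 4 counts in any Wilmar library and 40 to 272 in the laboratory strain.

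The libraries were not all of one type, and the histone genes also differed between replicates. Replicate 1 of Wilmar-P glucose, of Wilmar-P glucose-deficient and of Wilmar-A glucose-deficient are labelled unstranded, and the other 13 libraries stranded. The annotated antisense RNAs SPNCRNA.1194, over all of hta1, and SPNCRNA.1611, over all of hhf3, had 5385 to 7162 counts in the unstranded libraries and 12 to 150 in 12 of the stranded ones. Replicate 1 of Wilmar-A glucose, labelled stranded, had 7325 and 7404 counts there and so goes against its label. All 10 histone genes were lower in replicate 1 than in replicate 2 in each of the 4 groups that hold one of these libraries, by a median log2 difference of -0.99 in Wilmar-P glucose, -0.92 in Wilmar-A glucose, -0.45 in Wilmar-P glucose-deficient and -0.75 in Wilmar-A glucose-deficient. Over all tested protein-coding genes the same medians were -0.14, -0.13, -0.09 and -0.02. In the 4 groups with no such library, between 1 and 8 of the 10 genes were lower in replicate 1. Their median log2 differences were 0.52 in starved Wilmar-P, -0.20 in starved Wilmar-A, 0.03 in Wilmar-P molasses and 0.41 in laboratory molasses. Over all tested protein-coding genes these were -0.01, -0.05, -0.01 and 0.08. The gap in starved Wilmar-P, between stranded libraries, was thus larger in size than that in Wilmar-P glucose-deficient. The part of library type in these gaps was not tested. The fit carried the labelled strandedness as a term, and values with replicate 1 of Wilmar-A glucose treated as unstranded are given as values with the relabelled library for Wilmar-A in starved or glucose-deficient against glucose cells.

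By median CPM per kb of gene length over the 16 libraries, the 9 core histone genes stood in the top 5.07% of 5104 protein-coding genes, with hht2 at rank 88 and hta1 the lowest of the 9 at rank 259. The H2A.Z gene pht1 stood at rank 805. Every histone gene had at least 1340 counts in every library, so counting error was small beside the wider gaps between replicates. It was not small beside the narrowest gaps, such as htb1 in Wilmar-P molasses (1766 and 1772 CPM). The groups overlapped widely. When the 8 groups were ordered by mean CPM, 5 to 7 of the 7 neighbouring pairs overlapped for each gene, and no gene's order was resolved beyond the spread throughout. The levels ranged over 2.19-fold between the lowest and the highest library for htb1 and over 8.39-fold for hht2, the widest of the 10, as the plot of CPM by library shows.

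**Figure D1:**
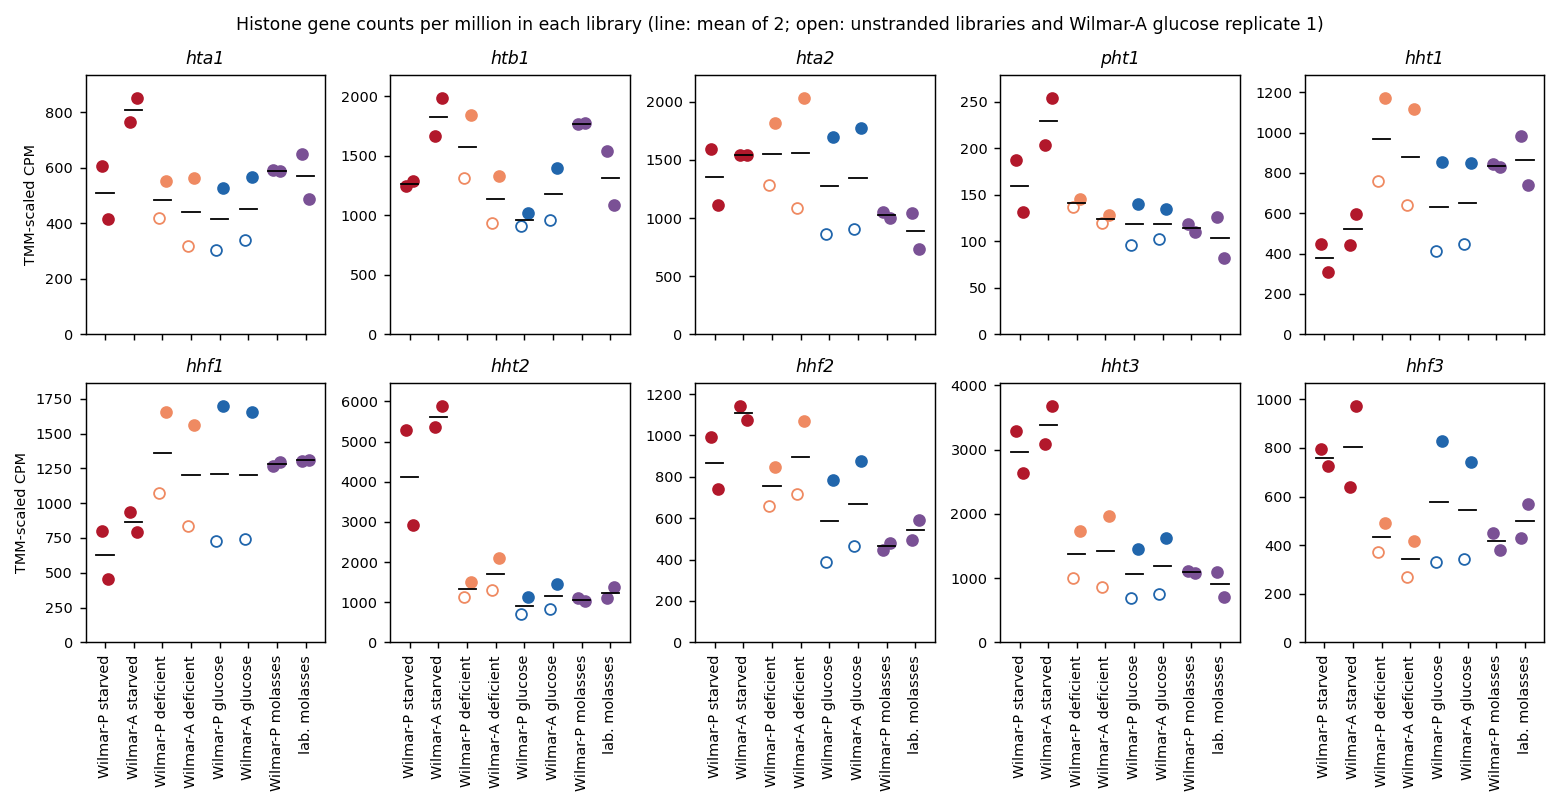
TMM-scaled CPM (linear axis from 0) of each histone gene in the 16 libraries, by group, with a line at the mean of the 2 libraries and open circles for the unstranded libraries and replicate 1 of Wilmar-A glucose. The 4 glucose-starved libraries of hht2 lie between 2933 and 5878 CPM, above all 12 other libraries, and all open circles lie below the filled circle of their own group.

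hht2 was the histone gene with the largest response to glucose starvation. It had 5280 and 2933 CPM in glucose-starved Wilmar-P and 5358 and 5878 CPM in glucose-starved Wilmar-A, against 701 and 1134 CPM in Wilmar-P in glucose and 843 and 1463 CPM in Wilmar-A in glucose. The glucose-deficient libraries had 1134 and 1514 CPM (Wilmar-P) and 1302 and 2106 CPM (Wilmar-A), and the molasses libraries 1097 and 1037 CPM (Wilmar-P) and 1096 and 1370 CPM (laboratory). All 4 starved libraries thus exceeded all 12 others. How many of all genes separate in this way was not counted, here or for the other genes below. In edgeR's quasi-likelihood test, with Benjamini-Hochberg adjustment over all genes tested, hht2 rose in starved against glucose cells by log2 1.9 ± 0.36 (SE, 95% interval 1.1 to 2.71, adjusted p = 0.00254) in Wilmar-P and by 2.28 ± 0.34 (1.53 to 3.04, adjusted p = 0.000511) in Wilmar-A. With replicate 1 of Wilmar-A glucose treated as unstranded the Wilmar-A value was 2.01 (edgeR adjusted p = 0.000146). The call held in both isolates under all 26 alternative settings, including the loss of each library in turn.

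hht3 followed hht2 at a smaller size. It had 3286 and 2634 CPM in starved Wilmar-P and 3084 and 3672 CPM in starved Wilmar-A, against 688 and 1448 CPM in Wilmar-P in glucose and 758 and 1618 CPM in Wilmar-A in glucose. The other 8 libraries held 704 to 1971 CPM, so that again the starved libraries lay above the rest. It rose in Wilmar-A by log2 1.51 ± 0.35 (edgeR adjusted p = 0.00644), or 1.09 (adjusted p = 0.00501) with the relabelled library. The Wilmar-A call was lost with only the 2 groups compared in the fit (1.5, edgeR adjusted p = 0.0714). In Wilmar-P the log2 fold change of hht3, 1.06 ± 0.38, missed the threshold (edgeR adjusted p = 0.051). That value was called by DESeq2 (log2 1.07, adjusted p = 0.0147) and with the relabelled library (1.05, adjusted p = 0.00562).

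hht1 went the other way. It had 445 and 307 CPM in starved Wilmar-P and 444 and 595 CPM in starved Wilmar-A, against 412 and 852 CPM in Wilmar-P in glucose and 448 and 850 CPM in Wilmar-A in glucose. The glucose-deficient libraries were higher, with 761 and 1171 CPM in Wilmar-P and 639 and 1119 CPM in Wilmar-A. Starved and glucose libraries overlapped, through the replicate 1 libraries of the glucose groups. In the fit that carries strandedness, hht1 fell in Wilmar-P by 1.07 ± 0.35 on the log2 scale (95% interval -1.84 to -0.31, edgeR adjusted p = 0.0332). In Wilmar-A its log2 fold change was -0.32 ± 0.32 (adjusted p = 0.429), or -0.67 (adjusted p = 0.0489) with the relabelled library, which is under the 2-fold threshold.

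The divergent partner of hht1, the H4 gene hhf1, moved with it. It had 803 and 455 CPM in starved Wilmar-P and 938 and 794 CPM in starved Wilmar-A, against 727 and 1695 CPM in Wilmar-P in glucose and 745 and 1653 CPM in Wilmar-A in glucose. The glucose-deficient libraries had 1075 and 1652 CPM (Wilmar-P) and 838 and 1561 CPM (Wilmar-A), and the 4 molasses libraries 1266 to 1310 CPM. hhf1 fell in Wilmar-P by 1.28 ± 0.39 on the log2 scale (95% interval -2.16 to -0.41, edgeR adjusted p = 0.0271). In Wilmar-A the value was -0.47 ± 0.37 (adjusted p = 0.312), or -0.85 (adjusted p = 0.026) with the relabelled library. The Wilmar-P calls of hht1 and hhf1 were both lost without replicate 2 of Wilmar-P glucose, at -0.85 and -0.97, and without replicate 2 of Wilmar-P glucose-starved, at -0.83 and -0.93. The hht1 call alone was also lost without either library of Wilmar-A glucose-deficient or of Wilmar-P molasses. With only the 2 groups compared in the fit, the hht1 call was lost as well (log2 -1.17, edgeR adjusted p = 0.0503). Both calls were also lost with no strandedness term, at -0.75 and -0.95. In bulk RNA, fewer cells in S phase and less histone RNA per cell cannot be told apart.

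The H4 genes hhf2 and hhf3, the divergent partners of hht2 and hht3, had smaller fold changes than these. hhf2 had 994 and 739 CPM in starved Wilmar-P and 1140 and 1077 CPM in starved Wilmar-A, against 391 and 783 CPM and 464 and 875 CPM in the same isolates in glucose. Its log2 fold change was 0.31 ± 0.32 in Wilmar-P (edgeR adjusted p = 0.498) and 0.73 ± 0.30 in Wilmar-A (0.07), or 0.44 (0.157) there with the relabelled library. hhf3 had 794 and 724 CPM in starved Wilmar-P and 640 and 971 CPM in starved Wilmar-A, against 329 and 828 CPM and 342 and 744 CPM in glucose. Its log2 fold change was 0.12 ± 0.39 in Wilmar-P (edgeR adjusted p = 0.849) and 0.57 ± 0.37 in Wilmar-A (0.225), or 0.23 (0.536) there with the relabelled library. Neither gene passed the test in either isolate. All of hhf3 lies under SPNCRNA.1611 on the other strand, so in unstranded libraries the reads of both cannot be told apart.

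**Figure D2:**
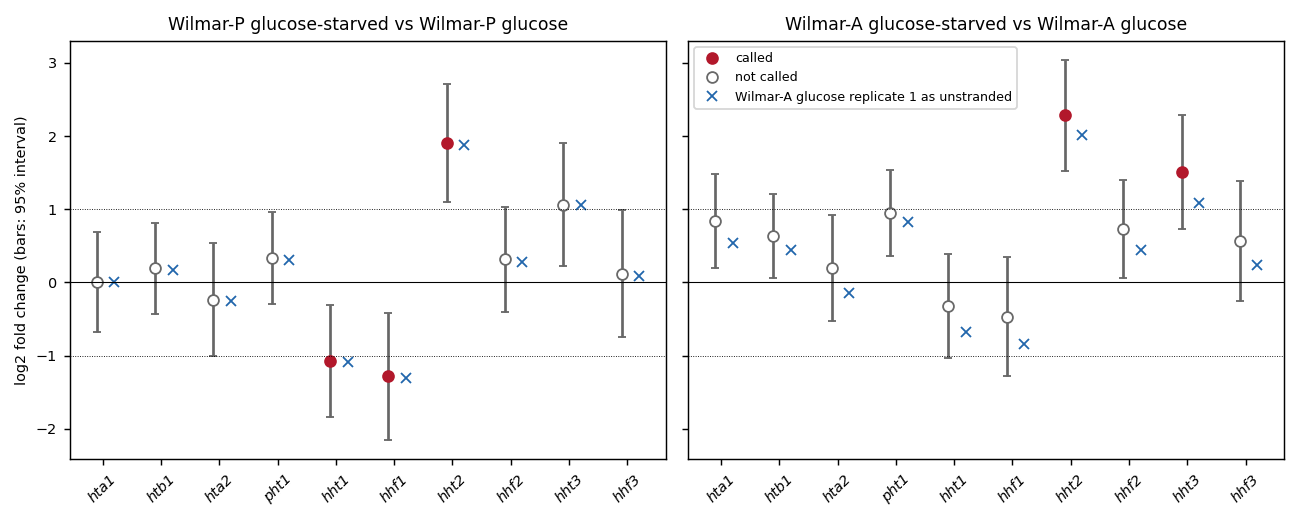
Log2 fold change of each histone gene in glucose-starved against glucose cells for Wilmar-P (left) and Wilmar-A (right), with 95% intervals from edgeR, filled where called (adjusted p under 0.05 and over 2-fold, dotted lines) and crosses for the fit with replicate 1 of Wilmar-A glucose as unstranded. hht2 stands at 1.9 and 2.28, and hht1 and hhf1 are below 0 in both panels, called in Wilmar-P alone.

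No H2A or H2B gene was called in starved against glucose cells. hta1 had 606 and 415 CPM in starved Wilmar-P and 766 and 852 CPM in starved Wilmar-A, against 305 and 528 CPM and 338 and 568 CPM in the same isolates in glucose, and its log2 fold change was 0.01 ± 0.31 (Wilmar-P) and 0.84 ± 0.29 (Wilmar-A, edgeR adjusted p = 0.0357, under 2-fold). With the relabelled library the Wilmar-A value of hta1 was 0.54 (adjusted p = 0.0919). hta1 lies under SPNCRNA.1194 on the other strand, so in unstranded libraries its reads and those of the antisense RNA cannot be told apart. htb1 had 1242 and 1285 CPM in starved Wilmar-P and 1663 and 1982 CPM in starved Wilmar-A, against 906 and 1019 CPM and 956 and 1399 CPM in glucose. For htb1 the log2 fold changes were 0.20 ± 0.28 (Wilmar-P, edgeR adjusted p = 0.647) and 0.63 ± 0.26 (Wilmar-A, 0.0652), or 0.44 (0.152) in Wilmar-A with the relabelled library. Its 3′ end overlaps sec5 on the other strand by 258 bases. hta2, the H2A gene that has no divergent partner here, had 1594 and 1112 CPM in starved Wilmar-P and 1539 and 1541 CPM in starved Wilmar-A, against 859 and 1697 CPM and 910 and 1778 CPM in glucose. Starved hta2 values lay between the 2 glucose libraries of each isolate, and its log2 fold changes were -0.24 ± 0.35 in Wilmar-P and 0.20 ± 0.33 in Wilmar-A. With the relabelled library the Wilmar-A value of hta2 turned to -0.14 (edgeR adjusted p = 0.679), so it has no settled direction.

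pht1, whose product replaces H2A in nucleosomes beside promoters through the SWR1 complex, had 188 and 131 CPM in starved Wilmar-P and 204 and 254 CPM in starved Wilmar-A, against 96.4 and 140 CPM in Wilmar-P in glucose and 103 and 135 CPM in Wilmar-A in glucose. Its Wilmar-A log2 fold change of 0.95 ± 0.27 had an edgeR adjusted p of 0.0152 but was under 2-fold, and it was 0.82 (adjusted p = 0.0209) with the relabelled library. The value in Wilmar-P was 0.33 ± 0.28 (adjusted p = 0.41). The Wilmar-A starved libraries of pht1 were the 2 highest of all 16.

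Counted over the 10 genes, 3 were called in starved against glucose Wilmar-P, 1 up and 2 down, where 30.0% of 5073 tested protein-coding genes were called. In Wilmar-A 2 were called, both up, where 34.8% of the tested genes were. The count of histone genes called was therefore at or under the share of genes in general. Without the fold threshold Wilmar-A had 4 called histone genes, hta1, pht1, hht2 and hht3, where 49.6% of tested genes passed. The 10 genes had a median log2 fold change of 0.16 (Wilmar-P) and 0.68 (Wilmar-A), beside medians of -0.03 and -0.11 over all tested protein-coding genes. With the relabelled library the Wilmar-A median was 0.44, beside -0.07 over all tested genes, and without replicate 2 of Wilmar-P glucose the Wilmar-P median was 0.38. The test of the difference between the isolates' responses called none of the 10 by edgeR (0% of tested genes) or DESeq2. At an unadjusted p under 0.05, 174 of 5073 tested protein-coding genes passed and 0 of the 10 did. Thus hht1 and hhf1 were not shown to differ between Wilmar-P and Wilmar-A. Their interaction terms were -0.75 ± 0.47 and -0.82 ± 0.54 on the log2 scale, and -0.41 and -0.47 with the relabelled library, where again none of the 10 was called. As labelled, the terms of all 10 genes were below 0, from -0.83 to -0.38, and all were read from the same libraries. The median of the 10 was -0.45, or -0.21 with the relabelled library, beside 0.02 as labelled over all tested protein-coding genes.

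Ratios within a library do not depend on its scaling, and they set the starved libraries apart. In CPM per kb, hht2 over hhf2 was 5.84 and 4.36 in starved Wilmar-P and 5.16 and 6.0 in starved Wilmar-A, against 1.97 and 1.59 in Wilmar-P in glucose and 2.0 and 1.84 in Wilmar-A in glucose. Over the 12 libraries that were not starved it ranged over 1.59 to 2.70. The partners hht1 and hhf1 kept their ratio, at 0.42 to 0.66 in the 4 starved libraries and 0.45 to 0.68 in the 12 others. The ratio of hht3 to hhf3 was 3.10 to 4.11 in the starved libraries and 1.06 to 4.02 in the others, of which the 2 highest were replicate 2 of glucose-deficient Wilmar-A (4.02) and of glucose-deficient Wilmar-P (3.01). The ratio of the summed H3 genes to the summed H4 genes was 2.94 to 3.46 in the starved libraries and 0.97 to 1.64 in the others (median 1.30), with no overlap. These ratios are descriptions. In the 3 unstranded libraries and replicate 1 of Wilmar-A glucose, hht2 over hhf2 was 1.89 to 2.0 and H3 over H4 1.18 to 1.49, inside the ranges of the 8 other libraries that were not starved (1.59 to 2.70 and 0.97 to 1.64).

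**Figure D3:**
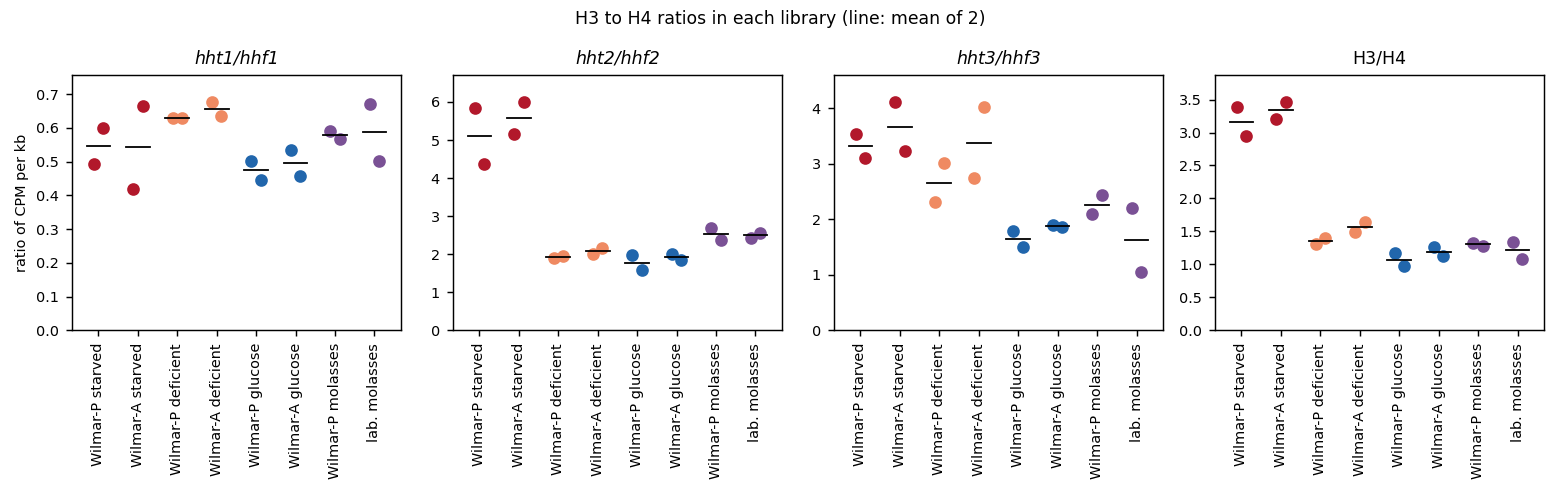
Ratio of CPM per kb (linear axes from 0) of each H3 gene to its divergent H4 partner, and of the summed H3 to the summed H4 genes, in the 16 libraries by group, with lines at group means. hht1/hhf1 overlaps between starved and other libraries, whereas hht2/hhf2 and H3/H4 do not (4.36 to 6.0 against 1.59 to 2.70, and 2.94 to 3.46 against 0.97 to 1.64).

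The shares that the 3 genes held of the H3 mRNA also set the starved libraries apart. Of the summed H3 CPM per kb, hht1 held 4.60% to 5.46% in the 4 starved libraries, against 20.4% to 29.6% in the 12 others. hht2 held 52.4% to 62.7% in the starved libraries and 35.3% to 51.3% in the others, again with no overlap, and hht3 held 32.7% to 42.7% and 23.9% to 40.9%, which overlap. Among the H4 genes, hhf1 held 24.1% to 35.5% in the starved libraries, against 47.3% to 60.8% in the others. hhf2 held 34.8% to 39.0% against 18.8% to 36.6%, and hhf3 25.5% to 40.5% against 14.9% to 26.7%. Among the H2A genes hta2 held the largest share in every library, with 61.9% to 70.4% in the starved libraries and 59.7% to 77.3% in the others. In the reference genome the protein sequences of H3, and of H4, are the same whichever gene is used.

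**Figure D4:**
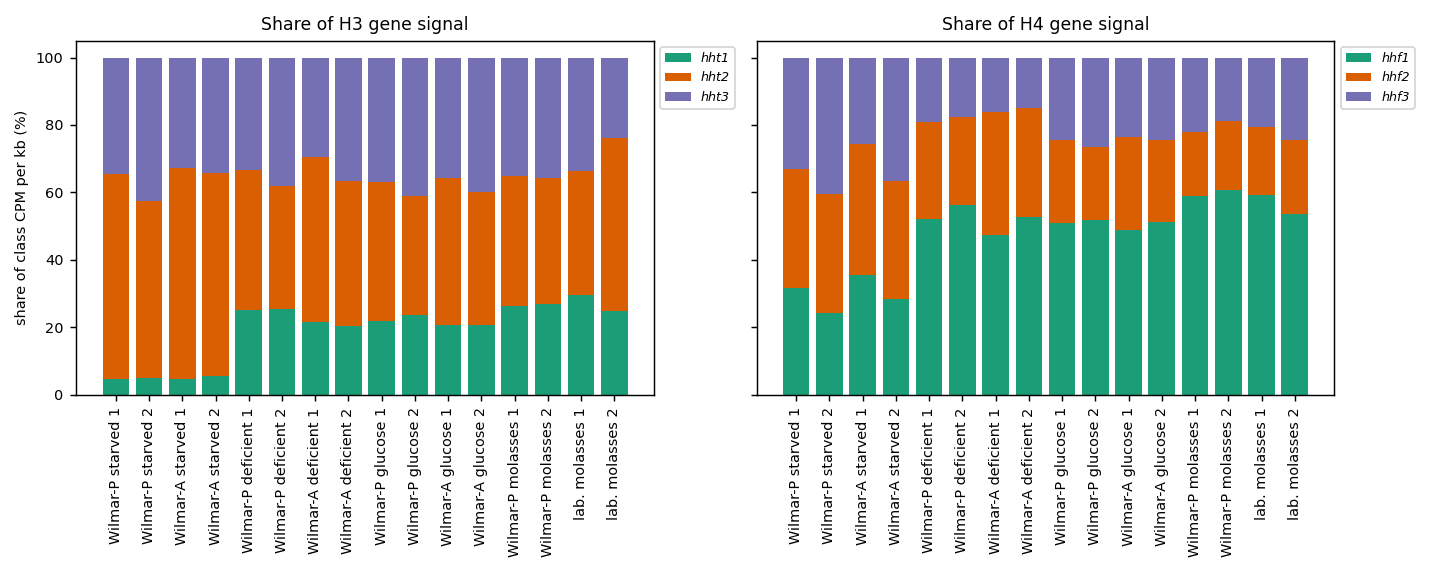
Share of the summed H3 (left) and H4 (right) CPM per kb that each gene held in each of the 16 libraries, as stacked bars to 100%. The hht1 segment is 4.60% to 5.46% in the 4 glucose-starved bars at the left and at least 20.4% in every other bar.

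In glucose-deficient against glucose medium no histone gene was called in either isolate by edgeR or by DESeq2, where 2.42% of tested genes were called in Wilmar-P and 9.68% in Wilmar-A. At an unadjusted p under 0.05, 1065 of 5073 tested protein-coding genes passed in Wilmar-P and 1612 in Wilmar-A. Of the histone genes 1 passed in Wilmar-P, htb1 (log2 0.69 ± 0.26, edgeR adjusted p = 0.196). In Wilmar-A 2 passed, hht1 (0.79 ± 0.35, adjusted p = 0.136) and hht2 (0.82 ± 0.35, adjusted p = 0.126). With the relabelled library these Wilmar-A values were 0.45 (edgeR adjusted p = 0.274) and 0.57 (0.21). The 95% interval of hht2 was -0.17 to 1.28 in Wilmar-P and 0.05 to 1.60 in Wilmar-A, and both intervals hold a 2-fold change. The Wilmar-A count was 6 without replicate 2 of Wilmar-A glucose, which leaves the library that goes against its label as the lone glucose sample.

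Starved against glucose-deficient cells repeated the split between H3 genes with the same starved libraries. Their media differ in 0.1% glucose alone, but their libraries also differ in type. Replicate 1 of each glucose-deficient group is labelled unstranded, and the starved libraries are all stranded. In Wilmar-P 3 of the 10 genes were called, where 23.0% of tested genes were, with hht1 at -1.74 ± 0.35, hhf1 at -1.55 ± 0.41 and hht2 at 1.34 ± 0.36 on the log2 scale (edgeR adjusted p = 0.0048, 0.0165 and 0.0189). In Wilmar-A 2 were called, where 19.6% were, with hht1 at -1.12 ± 0.35 (edgeR adjusted p = 0.0407) and hht2 at 1.46 ± 0.36 (0.0151). hhf1 in Wilmar-A was -0.86 ± 0.40 (adjusted p = 0.145). No starved library overlapped a glucose-deficient one for hht1, at 307 to 595 CPM against 639 to 1171 CPM. The Wilmar-P count was 0 without replicate 2 and 1 without replicate 1 of Wilmar-P glucose-deficient. In Wilmar-A the count was 0 without either glucose-deficient library or replicate 2 of the starved ones, and 1, hht2, without replicate 1 of the starved ones or any 1 of the Wilmar-P glucose, Wilmar-P glucose-deficient and Wilmar-P molasses libraries.

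None of the 10 was called in Wilmar-P in molasses against Wilmar-P in glucose by edgeR or DESeq2, where 1.24% of tested genes were called. At an unadjusted p under 0.05, which 637 of 5073 tested protein-coding genes reached, there was 1 of the 10. That gene was htb1, with 1766 and 1772 CPM in molasses against 906 and 1019 CPM in glucose (log2 0.68 ± 0.28, edgeR adjusted p = 0.341). hta2 had 1050 and 998 CPM in molasses against 859 and 1697 CPM in glucose, with a log2 fold change of -0.64 ± 0.35. hhf3 had 450 and 380 CPM in molasses against 329 and 828 CPM in glucose (-0.75 ± 0.39). hht2 overlapped between the media, with 1097 and 1037 CPM in molasses against 701 and 1134 CPM in glucose, and the 95% interval of its log2 fold change ran from -0.82 to 0.73. These are the glucose libraries of the starved comparison too. The glucose libraries had a wash and second culture, which are not stated for the molasses libraries. If these steps differed, medium cannot be told apart from them here.

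Against the laboratory strain in molasses, Wilmar-P again had none of the 10 genes called by edgeR or DESeq2, where 2.29% of tested genes were. None had an unadjusted p under 0.05, where 729 of 5073 tested protein-coding genes did. The log2 differences ran from -0.26 ± 0.37 for hhf3 to 0.43 ± 0.26 for htb1. hht3 had 1106 and 1083 CPM in Wilmar-P, against 1103 and 704 CPM in the laboratory strain, and htb1 had 1766 and 1772 CPM in Wilmar-P, against 1541 and 1084 CPM in the laboratory strain. For both genes the 2 laboratory libraries lay further apart than the 2 Wilmar-P libraries.

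Wilmar-P and Wilmar-A were also compared within each laboratory medium. No histone gene was called in glucose (0.0197% of tested genes), glucose-deficient medium (0.0788%) or glucose-starved medium (0.118%) by edgeR or DESeq2. The glucose comparison holds replicate 1 of Wilmar-A glucose, which goes against its label. The common dispersion, shared by all comparisons, was 0.100 as labelled and 0.0447 with the relabelled library. A larger dispersion makes a call harder to reach, so a lack of calls does not show that the groups are alike. At an unadjusted p under 0.05, 291 of 5073 tested protein-coding genes passed in glucose, 153 in glucose-deficient and 261 in glucose-starved medium. Of the histone genes 1 did, hta1 in starved cells, lower in Wilmar-P (606 and 415 CPM) than in Wilmar-A (766 and 852 CPM). Its log2 difference was -0.66 ± 0.29 (edgeR adjusted p = 0.886). In starved medium the differences of all 10 histone genes were below 0, from -0.66 to -0.09. Their median was -0.46, beside 0.04 over all tested protein-coding genes, and all were read from the same libraries. The change of the isolate difference from glucose to glucose-deficient medium was called for none by edgeR (0% of tested genes) or DESeq2. At an unadjusted p under 0.05, 124 of 5073 tested protein-coding genes passed and 0 of the 10 did.

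Other genes of histone regulation and S phase were read from the same fit in starved against glucose cells. Of all tested protein-coding genes, 16.1% rose and 13.9% fell in Wilmar-P, and 16.2% rose and 18.6% fell in Wilmar-A. The 6 histone gene regulators held 1 gene that rose in each isolate and none that fell, with a median log2 fold change of 0.11 in Wilmar-P and 0.02 in Wilmar-A. It was teb1, which encodes the AACCCT box-binding protein (1.03 ± 0.29 and 1.31 ± 0.26, edgeR adjusted p = 0.0171 and 0.00254). Of the 16 chaperone and deposition genes 1 fell in Wilmar-P and 2 in Wilmar-A (1 called with the relabelled library), with medians of -0.18 and -0.44 and none called up.

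Of the 17 MBF and G1-S genes, those driven by or part of the MBF transcription complex, 1 rose and 5 fell in Wilmar-P, and 1 rose and 7 fell in Wilmar-A, with medians of -0.39 and -0.68. Those that fell made up 29.4% of the list in Wilmar-P and 41.2% in Wilmar-A, beside 13.9% and 18.6% of all tested genes. The gene that rose in both was res2, an MBF subunit (2.12 ± 0.24 and 2.13 ± 0.22, edgeR adjusted p = 0.00013 and 8.35e-05). Those that fell in both were mik1, a kinase that inhibits Cdc2 (-3.35 and -3.25), cig2, the S-phase cyclin gene (-1.49 and -2.47), tos4 (-1.68 and -1.74), rep2, an activator subunit that works with Res2 (-1.66 and -1.52), and cdt1, a replication licensing factor (-1.34 and -1.45). Of 21 replication machinery genes 1 rose and 2 fell in Wilmar-P and 6 fell in Wilmar-A (3 called with the relabelled library), with medians of -0.45 and -0.51. The share that fell, 9.52% in Wilmar-P and 28.6% in Wilmar-A, was under the general 13.9% in Wilmar-P and over the general 18.6% in Wilmar-A. The 2 that fell in both were pol1, the catalytic subunit of DNA polymerase alpha (-2.10 and -1.71), and mcm7, a subunit of the replicative helicase (-1.45 and -1.60).

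Of 138 cytoplasmic ribosomal protein genes 25 fell in Wilmar-P and 32 in Wilmar-A (46 called with the relabelled library), none rose, and the medians were -0.49 and -0.59. These are 18.1% and 23.2% of the list, over the 13.9% and 18.6% of all tested genes that fell. With the relabelled library 14.7% of all tested genes fell in Wilmar-A. None of the list rose, where 16.1% and 16.2% of all tested genes did. The medians over all tested protein-coding genes were -0.03 and -0.11. Of 10 genes of sexual differentiation 1 rose and 3 fell in Wilmar-P and 3 fell in Wilmar-A (medians -0.11 and -0.37), with map3, a pheromone receptor, and byr1, a kinase of the pheromone pathway, down in both. With 10 genes, 3 that fell are 30.0% of the list. The histone genes hht2 and hht3 thus had log2 fold changes above 1 in the same libraries in which the S-phase lists had medians below 0. Of these, hht3 was not called in Wilmar-P. The values of hht1 and hhf1 were below 0 in both isolates, called in Wilmar-P alone. The other histone genes were called in neither isolate. In glucose-deficient against glucose medium, where no histone gene was called, 1 of the 17 MBF and G1-S genes rose in Wilmar-P and 5 rose in Wilmar-A, and none fell, where 2.21% of all tested genes rose and 0.217% fell in Wilmar-P, and 6.45% rose and 3.23% fell in Wilmar-A.

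The 9 core histone genes did not move as one. Over the 16 libraries the 36 pairs among them had a median Pearson r of 0.45 on the log2(CPM + 1) scale, from -0.33 to 0.92, with 5 pairs below 0. These libraries share media, isolates and library types, and r is given as a description. The 5 other protein-coding genes most like the mean profile of the 9 were lsm2 (r = 0.92), cys12 (0.92), dlc1 (0.92), gms2 (0.90) and pvg3 (0.90) out of 5063, none of them in the lists. Over the 8 group means, none of these was among the closest 5, and their ranks were 12 to 266. The mean profile of the 9 genes was lowest in replicate 1 of Wilmar-P glucose (-0.76 on the log2 scale around the mean of all libraries) and of Wilmar-A glucose (-0.64), and highest in replicate 2 of starved Wilmar-A (0.64).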

How the data were processed

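Per the labels and the study's methods, the authors trimmed adapters with Trim Galore, a wrapper of cutadapt (1.9.1 in the submitters' processing notes), aligned the reads with TopHat2 2.1.1 to the S. pombe reference ASM294v2 and counted them per gene with featureCounts 1.5.2, letting a read count for every overlapping gene and using strand for stranded libraries alone. The deposited values are raw counts per gene. Of 7019 genes, 6845 matched RefSeq names. Sequences came from RefSeq ASM294v3, where 97.85% of 10702 internal exon boundaries sat at the position the count table gives.

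Counts were fitted with edgeR 4.0.16 (R 4.3.3) on all 16 libraries, 8 groups plus labelled strandedness, after filterByExpr (6662 genes, 5073 protein-coding), with 7 residual degrees of freedom. Adjusted p-values are Benjamini-Hochberg over all 6662 genes. A gene was called at adjusted p under 0.05 and log2 fold change over 1 in size. Levels are TMM-scaled CPM, compared between genes per kb. The fit was tested on simulated counts. Alternatives covered scaling, filters, test (DESeq2 1.42.0), strandedness, samples, the replicate number and each library in turn. The members and lists were chosen with earlier results of these data known. Named list genes were those called in starved against glucose cells in both isolates, up to 6 a list, and the 5 genes most like the core profile. Antisense and unstranded reads cannot be separated.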

Additional observations from a re-analysis of the deposited data

How the results depend on the processing

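The hht2 call in starved against glucose cells held under every alternative in both isolates. In that comparison the count of called histone genes in Wilmar-P, 3 as reported, ranged over 1 to 4 when single libraries were left out, and it was 1 without replicate 2 of Wilmar-P glucose or of Wilmar-P glucose-starved. In Wilmar-A, 2 as reported, it was 4 with no fold threshold, 1 with only the groups compared (hht2), and 2 to 6 with single libraries left out, the 6 without replicate 2 of Wilmar-A glucose. That library's loss also took glucose-deficient against glucose Wilmar-A to 6, where other losses left 0. Starved against glucose-deficient Wilmar-P, 3 as reported, gave 1 with only the groups compared and 0 to 3 with single libraries left out. The same comparison in Wilmar-A, 2 as reported, gave 1 with no strandedness term and 0 to 2 with single libraries left out. The cause was not tested.

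When the replicate number was fitted as a block, the Wilmar-P starved against glucose count was 1 (hht2, without hht1 and hhf1) and the Wilmar-A starved against glucose-deficient count was 1, and the other counts kept within 1.5 times. The labels do not say that a number marks a shared batch, so the numbers were not taken to pair libraries. Same-numbered deviations correlated at 0.81 to 0.95 in the comparisons among glucose and glucose-deficient groups. In the comparisons with starved or molasses groups they correlated at -0.02 to 0.35. Replicate 1 of the glucose and glucose-deficient groups holds the unstranded libraries and the one that goes against its label, and a shared factor was not tested. No called value changed sign. Of 1300 values of single genes under settings that keep every library, 66 had another sign than the reported value, none of them called in either fit, and of 2080 with a library left out, 79 did. The 5 genes most like the histone profile shared 0 with those over group means and 3 to 5 when a library was left out. Treating replicate 1 of Wilmar-A glucose as unstranded took the common dispersion to 0.0447, against 0.100 as labelled, and was a choice made with earlier results known. With the block as well, a combination added after seeing the data, the starved against glucose counts were 3 in Wilmar-P and 2 in Wilmar-A.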
